A study of Homo sapiens with 6 samples.

Results

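The genes described here are 4 growth factors of the EGF family, AREG, EREG, HBEGF and BTC, and 2 of their receptors, ERBB2 and ERBB3. They were taken by gene symbol as 6 of the 18234 rows of the deposited table, each symbol having 1 row. All libraries came from IMR90, a normal human lung fibroblast line, made to express RASV12 by retroviral infection and given a miR-146a mimic carrying psoralen and biotin. Puromycin selection lasted 3 days at 1.5 ug/ml, and cells seeded on day 10 after infection received the mimic 24 hours later. The protocol describes immunoprecipitation of AGO2, the protein that microRNAs are loaded into, followed by purification through the biotin of the mimic. The 3 miR-CLIP libraries carry an AGO2 antibody label and the 3 Input libraries do not, while the genotype label is the same, so RASV12 and the mimic are common to both groups. The protocol text is the same for both, and at which step Input RNA was taken was not given. Below, values are listed in the order of libraries A, B and C of each group. Cells with the empty vector or with the unmodified mimic, which the protocol also names, were not analysed here.

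EGF-family ligands are made as membrane-bound precursors that metalloproteases cut to release the soluble factor, which then binds ERBB receptors on the same or a neighbouring cell. AREG binds EGFR, EREG, HBEGF and BTC bind both EGFR and ERBB4, ERBB2 has no known ligand and acts as a dimer partner, and ERBB3 binds neuregulins and has a weak kinase. Oncogenic RAS is known to raise the transcription of several of these ligands through ERK signalling, which closes an autocrine loop. The question put to the libraries was whether the RNAs of this loop were held by the miR-146a mimic more, or less, than their share of Input RNA.

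The mature microRNA and the sites that its seed could pair with are shown first, because the assay is built on that pairing. The capitals in miR-146a mark the seed, bases 2 to 8. Those in the transcripts mark the site, complementary to the seed except for the last A of the 8mer, which faces the u before the seed. The microRNA sequence is from RefSeq, build GRCh38.p14, at chr5:160485372-160485393 on the plus strand. The transcript windows are from GENCODE release 29, build GRCh38.
hsa-miR-146a-5p: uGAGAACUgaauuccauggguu
EREG 6mer site: acaatgtaactccactGTTCTCctg
EGFR 8mer site: tgtgcttcccaaaatAGTTCTCAct
EGFR 7mer-m8 site: tttgttgcgggatatAGTTCTCttt
The EREG window lies at chr4:74387951-74387975 on the plus strand, with the site at position 3159 of a 3′ UTR of 3943 nucleotides. It is the only match in any of the 6 genes. The longest annotated 3′ UTRs of AREG (269 nucleotides), HBEGF (1456), BTC (1918), ERBB2 (618) and ERBB3 (1450) held 0 copies of the 6mer GTTCTC, and so 0 of the longer AGTTCTC and GTTCTCA, all searched on the transcript strand. Among 8358 protein-coding genes of the table with a 3′ UTR, 30.6% held the 6mer, 11.3% AGTTCTC and 4.31% the 8mer AGTTCTCA. The EGFR windows are at chr7:55208153-55208177 and chr7:55209753-55209777, both on the plus strand. EGFR, the receptor that the 4 ligands share, held 5 copies of the 6mer in a 3′ UTR of 6011 nucleotides, 1 of them within the 8mer shown. A match is a string of letters and not a measured site.

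Libraries were compared with each other before any gene. Over the genes tested, which are not independent replicates, miR-CLIP B had Pearson r between 0.973 and 0.982 with the Input libraries. It had 0.929 with miR-CLIP A and 0.911 with miR-CLIP C, so the tests of the members are also given without it. miR-CLIP A had 0.942 with miR-CLIP C, and 0.952, 0.946 and 0.940 with Input A, B and C. miR-CLIP C had 0.925 to 0.930 with the Input libraries. The reason for these differences was not tested. The rows held 6847837 to 12771968 reads per library. Values are normalised read counts, that is reads divided by 1 size factor per library. Of 15 fibroblast markers, 10 had a row and all 10 were detected, summing to 162127 to 229450 in Input and 169750 to 200387 in miR-CLIP. The 9 epithelial markers with a row summed to 1024 to 1380 in Input and to 541, 2277 and 1050.2 in miR-CLIP. Of these, CDH1, KRT19, ESRP1 and ELF3 were under 10 in every library, while EPCAM, KRT8, KRT18, CLDN4 and CLDN7 were not. The 7 endothelial markers summed to 392 to 461 in Input and 256 to 370.4 in miR-CLIP, and the 8 blood markers to 13.9 to 30.01 and 11.4 to 61.3. EMCN alone of the endothelial markers, and HBA1 alone of the blood markers, were at 0 in every library. The endothelial marker KDR had 25.7, 14.97 and 26.02 in Input and 13.4, 12.9 and 2.501 in miR-CLIP. It was picked after its values were seen, as the 1 of 6 endothelial markers tested whose groups did not overlap. Over all tested genes, 7.34% lay lower without overlap. The source of the epithelial, endothelial and blood marker reads was not tested. IRAK1, a known miR-146a target, had 1615, 1573 and 1071 in Input and 3655, 1599 and 3486 in miR-CLIP. HRAS had 7751, 9158 and 8682 in Input and 13943, 7223 and 15067 in miR-CLIP. For both, miR-CLIP A and C lay above every Input library and B did not, and neither passed the test described next.

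None of the 6 genes passed the test of miR-CLIP against Input, limma on log2(value + 1) at a Benjamini-Hochberg adjusted p of 0.05, and neither did any of the 8506 genes tested (0.0% called). At an unadjusted p under 0.05 limma gave 548 genes (6.44%), with 344 lower (4.04%), among them EREG alone of the members. edgeR gave 358 higher and 202 lower at that threshold and called 0 after adjustment, and DESeq2 gave 462 and 213 and called 2, neither of them a gene of this family. Of the 6 genes, 5 had enough signal to be tested and BTC did not, and ERBB3 would have passed that filter on its Input libraries alone. EREG and ERBB3 lay lower in every miR-CLIP library than in any Input library, as did 7.34% of tested genes. AREG, HBEGF and ERBB2 overlapped, and 0 members lay higher without overlap, against 5.64% of tested genes. Without miR-CLIP B, AREG and EREG passed as lower, in a fit that called 16.1% of all genes lower and 12.6% higher.

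Epiregulin, EREG (chr4:74365143-74388751), was the ligand with the highest normalised read count. Its values were 2134, 2503 and 2737 in Input and 668, 1893 and 1639 in miR-CLIP. Every miR-CLIP library was thus below every Input library, with A lowest by a wide margin. The means were 2458 ± 304 and 1399.9 ± 646 (SD, n = 3 each), a log2 fold change of -0.94 ± 0.40 (SE, limma adjusted p = 0.611), lower in 3 of 3 miR-CLIP libraries. Without miR-CLIP B it was -1.224 ± 0.34 (limma adjusted p = 0.0315), and without miR-CLIP A it was -0.47 ± 0.26 (limma adjusted p = 0.846). After correction of each library for GC content and transcript length it was -0.49 ± 0.39 (limma adjusted p = 0.639). The lowest library held 647 reads of EREG, so that counting alone gives an error of 3.93% there, against a coefficient of variation of 46.2% between miR-CLIP libraries.

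Amphiregulin, AREG (chr4:74445134-74455009), is the gene next to EREG on chromosome 4. It had 636, 1108 and 1161 normalised read counts in Input and 331, 1208 and 368 in miR-CLIP. Libraries A and C of miR-CLIP lay below all Input libraries and library B above all of them, so the groups overlapped. The means were 968 ± 289 and 636 ± 496 (SD, n = 3 each), with a log2 fold change of -0.82 ± 0.51 (SE, limma adjusted p = 0.611). Without miR-CLIP B the log2 fold change was -1.42 ± 0.28 and the limma adjusted p 0.00876. Without miR-CLIP A it was -0.49 ± 0.54 (limma adjusted p = 0.854), and after the correction for GC content and length -0.36 ± 0.33 (limma adjusted p = 0.680). The comparison sets RNA recovered in the purification against Input RNA. It does not measure how many cells express AREG or how much of its RNA each cell holds. In the fit without miR-CLIP B, 16.1% of all genes passed as lower. Markers of other cell types among them were EPCAM, KRT8 and KRT19, 3 of 7 epithelial tested, and CD14, 1 of 5 blood. Of the 6 endothelial markers tested, 0 passed in either direction. KRT19 and CD14 were under 10 normalised read counts in every library. Of the 10 fibroblast markers, COL1A2 and COL3A1 passed as higher and DCN as lower in that fit. The part of these cell types in the result was not tested.

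HBEGF (chr5:140332843-140346631), heparin-binding EGF-like growth factor, is also known as the receptor for diphtheria toxin. It had 612, 531 and 483 normalised read counts in Input and 625, 591 and 593 in miR-CLIP. The miR-CLIP libraries lay within 1.06-fold of each other, the closest of the tested members, and inside or just above the Input range. The means were 542 ± 65.3 and 603 ± 19.1 (SD, n = 3 each), and the log2 fold change was 0.16 ± 0.25 (SE, limma adjusted p = 0.810). Its 95% confidence interval ran from -0.41 to 0.73, so a difference within that range in either direction was not excluded. Without miR-CLIP B the log2 fold change was 0.17 ± 0.19 (limma adjusted p = 0.528), and after the correction for GC content and length 0.40 ± 0.28 (limma adjusted p = 0.611).

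**Figure D1:**
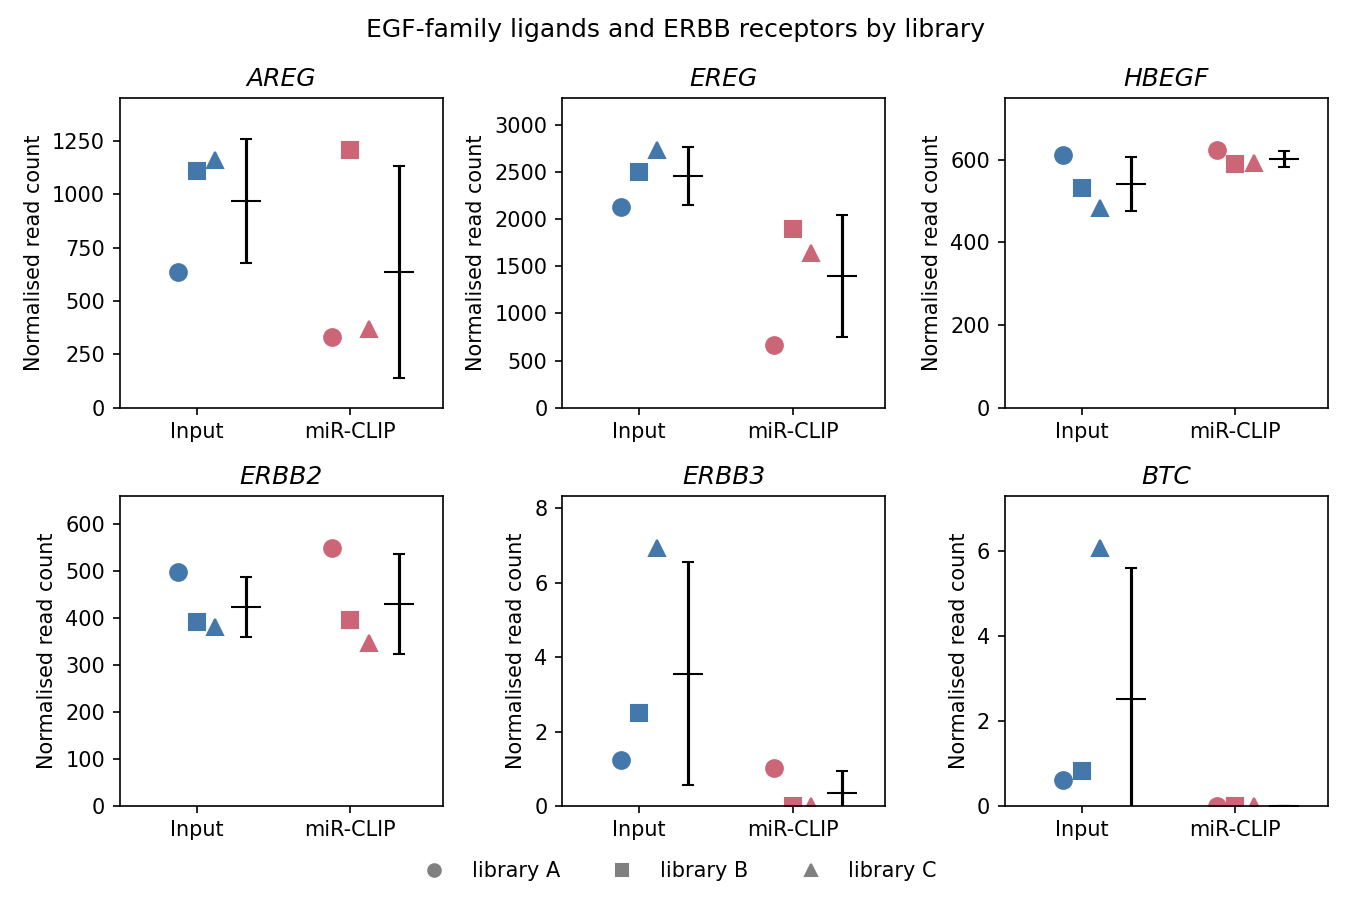
Normalised read counts (y axis, from 0) of the 6 genes in the 3 Input libraries (blue) and the 3 miR-CLIP libraries (red). Symbols give the library letter, and black bars the mean ± SD over 3 libraries, cut off at 0. AREG and EREG are lowest in miR-CLIP A, AREG in miR-CLIP B lies at 1208, above the highest Input value of 1161, and HBEGF stays between 483 and 625.

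Betacellulin, BTC (chr4:74744759-74794686), was barely detected. It had 1, 1 and 7 reads in Input, or 0.612, 0.832 and 6.07 normalised read counts, and 0 reads in each miR-CLIP library. A count of 0 over the 3 miR-CLIP libraries allows a normalised read count of up to 1.08 (3 reads over the group, counting error only), and 7 of the 9 Input reads came from 1 library. No difference could be judged at this depth and no fold is given.

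ERBB2 (chr17:39687914-39730426) was the better expressed of the 2 receptor members. It had 498, 392 and 381 normalised read counts in Input and 549, 395 and 346 in miR-CLIP. The groups overlapped, the miR-CLIP range extending past the Input range at both ends, with library A highest in both. The means were 423 ± 64.7 and 430.3 ± 106 (SD, n = 3 each), and the log2 fold change was 0.01 ± 0.30 (SE, limma adjusted p = 0.996), with a 95% confidence interval from -0.67 to 0.68. Without miR-CLIP B it was 0.053 ± 0.25 (limma adjusted p = 0.897). Exons of ERBB2 overlap those of PGAP3 and MIEN1 on the other strand, and the strand setting of the counting was not given in the sources used here, so part of its reads may belong to them.

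ERBB3 (chr12:56079857-56103505) was near the limit of detection. Its reads numbered 2, 3 and 8 in Input and 1, 0 and 0 in miR-CLIP. The normalised read counts were 1.225, 2.49 and 6.94 in Input and 1.03, 0 and 0 in miR-CLIP. The fitted log2 fold change of -1.64 ± 0.73 (SE, limma adjusted p = 0.611) rests on 14 reads, and with a pseudocount of 5 or 0.5 in place of 1 it was -0.63 or -2.22. Without miR-CLIP B it was -1.47 ± 0.76 (limma adjusted p = 0.182). ERBB3 also shares exons with the read-through gene AC034102.2 on its own strand.

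In the authors' deposited table the fold of miR-CLIP over Input was 0.657 for AREG, 0.570 for EREG, 1.11 for HBEGF and 1.02 for ERBB2. The authors' deposited table gives an adjusted p of 1 for each of the 6, and its smallest unadjusted p among them was 0.0677, for EREG.

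Ligands and receptors were then compared per kilobase of the longest annotated transcript, since a long RNA gives more reads than a short one. In Input, EGFR had 991 ± 239 normalised read counts per kb, AREG 781 ± 233, EREG 532 ± 65.9, HBEGF 227 ± 27.4 and ERBB2 85.9 ± 13.1 (SD, n = 3). EGFR stood above AREG in 2 of 3 Input libraries and their ranges overlapped, so their order is not settled. AREG stood above EREG in all 3 Input libraries although their ranges overlapped, with 513 against 462 in A, 893 against 542 in B and 937 against 593 in C. EREG, HBEGF and ERBB2 followed with ranges that did not overlap. The same order of means held with the length of all exons in place of the longest transcript. Below them, EPGN, EGF, BTC, ERBB4 and ERBB3 had means of 2.43, 1.41, 0.89, 0.63 and 0.60 per kb, each pair of neighbours overlapping. The ligand and receptor RNAs abundant in these cells were therefore AREG, EREG and HBEGF with EGFR and ERBB2, among the family members analysed. TGFA and the neuregulins were not analysed here.

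**Figure D2:**
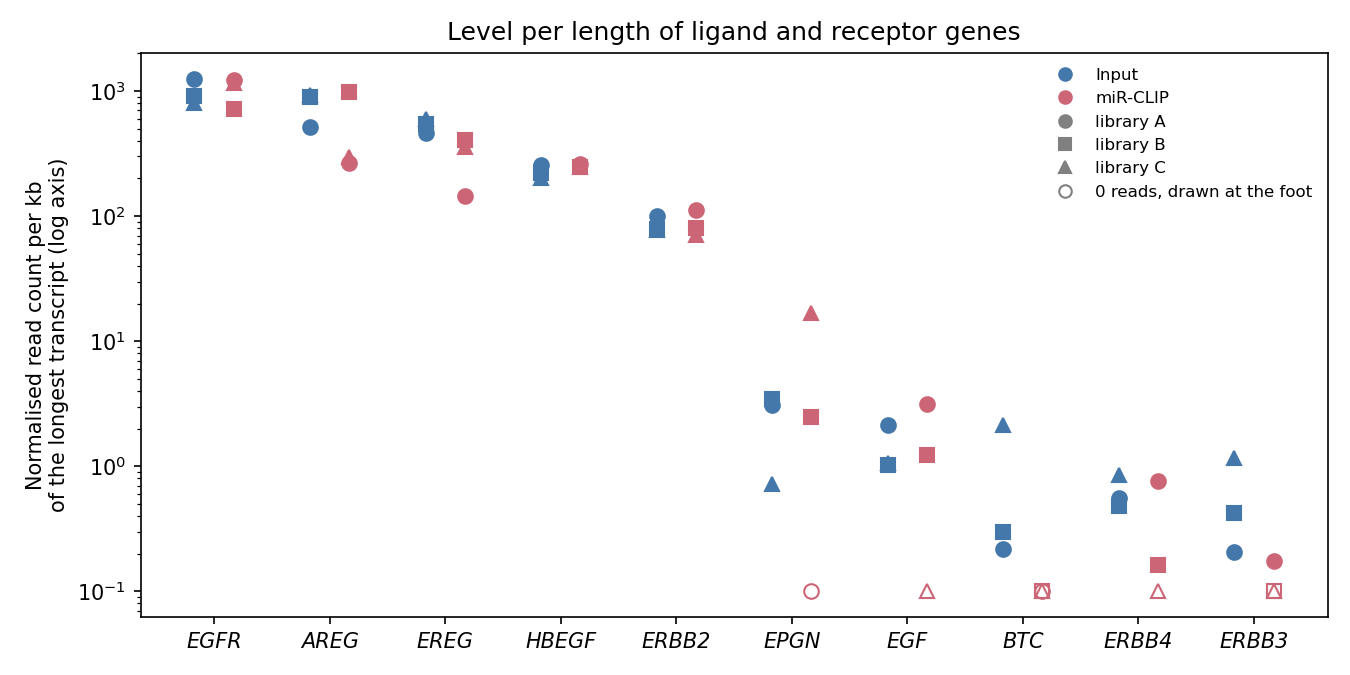
Normalised read count per kilobase of the longest annotated transcript (y axis, logarithmic) for 10 ligand and receptor genes, ordered by their Input mean, in 3 Input (blue) and 3 miR-CLIP (red) libraries. Open symbols stand for 0 reads. The first 5 genes lie above 70 per kb in every library and the other 5 below 20.

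In miR-CLIP the order of AREG and EREG per kb was kept in libraries A (267 against 145) and B (975 against 410) and turned in C (296 against 355). EREG was also under HBEGF in miR-CLIP A, at 145 against 262 per kb, while HBEGF was above ERBB2 in all 6 libraries. Ratios within a library do not depend on how libraries are scaled, and those given next are of normalised read counts, not divided by length. EREG over HBEGF was 3.48, 4.71 and 5.67 in Input and 1.07, 3.20 and 2.77 in miR-CLIP, so that the groups did not overlap. This was the only one of 8 ratios computed in which they did not, and with EGFR as the denominator EREG had 0.173, 0.277 and 0.3502 in Input and 0.0550, 0.267 and 0.143 in miR-CLIP, which overlapped. AREG over HBEGF was 1.04, 2.08 and 2.40 in Input and 0.531, 2.05 and 0.620 in miR-CLIP, where B lay among the Input values. ERBB2 over HBEGF stayed between 0.584 and 0.879 in all 6 libraries.

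The receptor that the ligands share gave no call. EGFR (chr7:55019021-55211628) had 12352, 9033 and 7818 normalised read counts in Input and 12137, 7084 and 11446 in miR-CLIP. Exons of EGFR overlap those of EGFR-AS1 on the other strand. With the strand setting not given, part of its reads may belong to that gene. The EGFR values of the groups overlapped, and miR-CLIP B was the lowest of all 6 libraries. The log2 fold change was 0.06 ± 0.33 (SE, limma adjusted p = 0.952), with a 95% confidence interval from -0.69 to 0.80, and 0.30 ± 0.23 without miR-CLIP B (limma adjusted p = 0.359). ERBB4, the other receptor for EREG, HBEGF and BTC, had 6.74, 5.82 and 10.4 in Input and 9.29, 1.99 and 0 in miR-CLIP. The ligand EPGN had 3.67, 4.16 and 0.867 in Input and 0, 2.98 and 20.005 in miR-CLIP, and EGF had 10.4, 4.99 and 5.20 and 15.5, 5.96 and 0. These 3 genes rest on a few reads in most libraries, and without miR-CLIP B none of them passed, with limma adjusted p of 0.323 for ERBB4, 0.853 for EPGN and 0.591 for EGF.

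EPGN, EREG, AREG and BTC lie in this order within 486 kb of chromosome 4, with 49.8 kb between EPGN and EREG, 56.4 kb between EREG and AREG and 290 kb between AREG and BTC. EREG and AREG were abundant, and the outer 2 were near the limit of detection. EREG and AREG had a Pearson r of 0.78 over the 6 libraries on the log2 scale, which places EREG 1155th among 5101 genes ordered by their likeness to AREG.

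Transcript length moved with the libraries in the same way as AREG. AREG, with a longest transcript of 1240 nucleotides, and HBEGF, with 2386, are both in the shortest of 4 equal classes of tested protein-coding genes ordered by length. That class, 270.0 to 2390.0 nucleotides, had a median log2 difference from Input of -0.83, 0.44 and -0.92 in miR-CLIP. AREG had -1.49, 0.37 and -1.35 in the same libraries and HBEGF 0.21, 0.13 and 0.13. AREG thus followed the sign of its length class in each library, and HBEGF did so in B alone. AREG also lay below the median of its class in each of these libraries. HBEGF is at the upper edge of that class, and the next class, from 2391 nucleotides, had medians of -0.21, 0.11 and -0.28. EREG, with 4619 nucleotides, and ERBB2, with 4930, are in the class of 3687 to 5525 nucleotides, where the medians were 0.16, -0.06 and 0.05. EREG had -1.87, -0.37 and -0.58 there, below its length class in every miR-CLIP library, and ERBB2 0.39, -0.09 and -0.28. EGFR, in the longest class, had 0.34, -0.43 and 0.26, beside medians of 0.54, -0.25 and 0.34. Like EREG and AREG, EGFR thus lay below its length class in every miR-CLIP library. The part of length in these differences was not tested beyond the correction given for each gene.

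**Figure D3:**
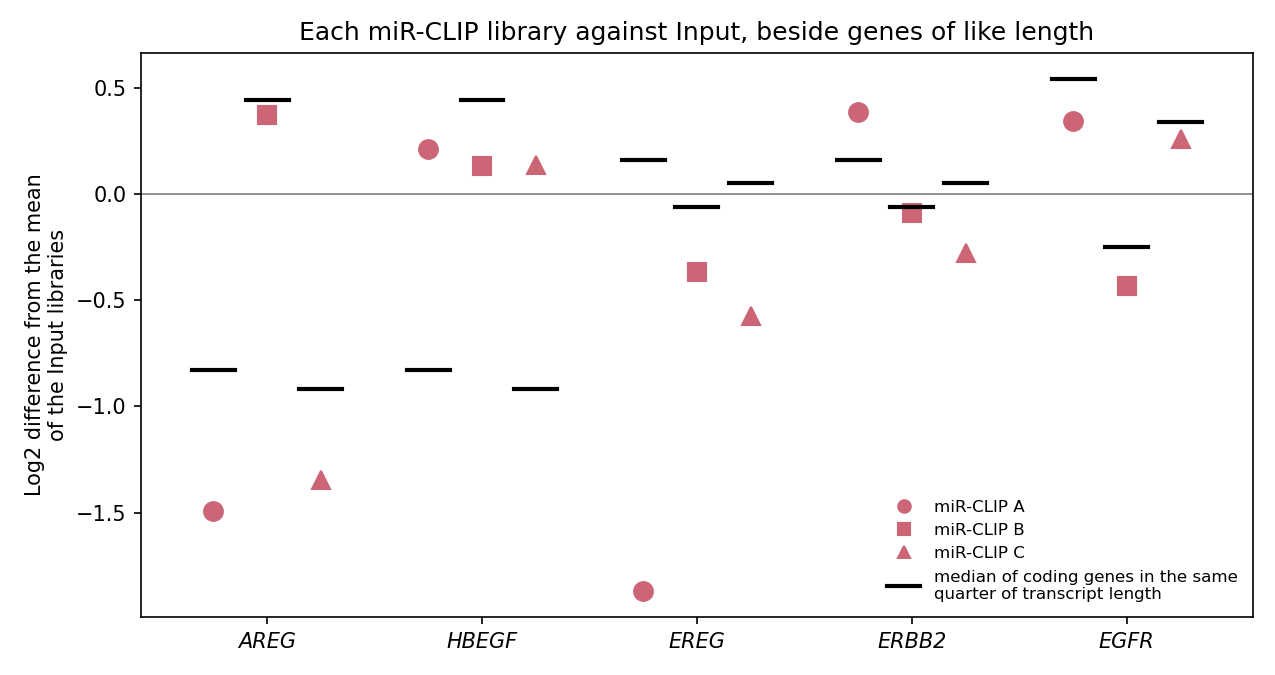
Log2 difference of each miR-CLIP library from the mean of the Input libraries (y axis) for 5 genes, as red symbols by library letter. Black lines give the median of tested protein-coding genes in the same of 4 classes of transcript length. EREG, AREG and EGFR lie under their lines in each library. HBEGF lies above its line in A and C and under it in B, and ERBB2 above it in A and under it in B and C. AREG and EGFR lie on the same side of 0 as their lines.

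The 3′ UTRs of the ligands also differ in AU-rich sequence, which is known to shorten the life of growth factor mRNAs. The pentamer ATTTA, counted on the transcript strand with overlaps allowed, occurred 20 times in EREG, 12 times in BTC, 5 times in HBEGF and 4 times in AREG. It occurred 2 times in ERBB3 and 0 times in ERBB2. Per kilobase of 3′ UTR this was 14.9 in AREG, 6.26 in BTC, 5.07 in EREG, 3.43 in HBEGF and 1.38 in ERBB3, against a median of 1.52 over all 8358 coding 3′ UTRs. The longer TATTTAT was found 4 times in EREG, 2 times in HBEGF, 1 time in AREG and 0 times in BTC, ERBB2 and ERBB3, and 32.1% of the 3′ UTRs held at least 1 copy.

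Genes of ligand release gave no call with all 6 libraries. Of 12 listed, 9 had a row and were tested, 0 passed in either direction, and the median log2 fold change was 0.25, against -0.13 over all genes tested. FRMD8, which holds the sheddase complex of ADAM17 at the cell surface, had 523 ± 131 normalised read counts in Input and 1704, 608 and 3821 in miR-CLIP (log2 fold change 1.63 ± 0.59, limma adjusted p = 0.611). ADAM17, the main sheddase of AREG, EREG and HBEGF, had 445 ± 93.7 in Input and 1044, 346 and 845 in miR-CLIP (0.62 ± 0.43, limma adjusted p = 0.612). The related metalloproteases ADAM9 and ADAM19 had log2 fold changes of 1.225 ± 0.78 and 0.45 ± 0.41. In these 4 genes miR-CLIP A and C were high and B was not. Without miR-CLIP B these 4 of the 9 passed as higher and 0 as lower, in the fit that called 12.6% of all genes higher and 16.1% lower.

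Adaptors and kinases that act next to the receptors gave no call with all 6 libraries. Of 20 listed, 10 had a row, 9 were tested and 0 passed, with a median log2 fold change of 0.43. The adaptor CRK had 3087 ± 279 in Input and 9349, 2390.0 and 14079 in miR-CLIP (1.14 ± 0.58, limma adjusted p = 0.611). The adaptor GRB10 had a log2 fold change of 0.59 ± 0.37, the kinase JAK1 0.66 ± 0.42 and EPS8, a substrate of EGFR, 0.43 ± 0.33. Without miR-CLIP B these 4 and CRKL, 5 of 9, passed as higher and 0 as lower, beside 12.6% and 16.1% of all genes.

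Inhibitors, turnover factors and chaperones of the receptors showed no common direction. All 13 with a row, of 25 listed, were tested, 0 passed, and the median was -0.01. The endocytic adaptors EPS15L1 and EPS15 had log2 fold changes of 0.39 ± 0.25 and -0.25 ± 0.25, and the sorting factors CHMP4B and HGS -0.35 ± 0.32 and 0.24 ± 0.26. Without miR-CLIP B, CBL, the ubiquitin ligase of EGFR, and ERBIN, which binds ERBB2, passed as higher, and CHMP4B and the chaperone CDC37 as lower, 4 of 13 beside 28.7% of all genes, a share near that background.

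Genes that respond to ERK, the kinase downstream of the loop, were mixed. Of 19 listed, 15 had a row and were tested, 0 passed, and the median log2 fold change was 0.14. The ERK phosphatase DUSP5 had 5692 ± 387 normalised read counts in Input and 16325, 5586 and 25865 in miR-CLIP (1.23 ± 0.51, limma adjusted p = 0.611). The early response genes IER2 and IER3 had 0.67 ± 0.36 and -0.62 ± 0.47, and the transcription factor EGR1 0.45 ± 0.39. FOSL1, an AP-1 subunit, was the only one of the 15 whose groups did not overlap, with 2954, 3143 and 2834 in Input and 3212, 3331 and 3264 in miR-CLIP. Over all tested genes 13.0% did not overlap, with 5.64% higher. FOSL1 was chosen after its values were seen, and its log2 fold change was 0.14 ± 0.23 (limma adjusted p = 0.822). Without miR-CLIP B, IER2 and DUSP5 passed as higher and IER3 as lower, 3 of 15 beside 28.7% of all genes.

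**Figure D4:**
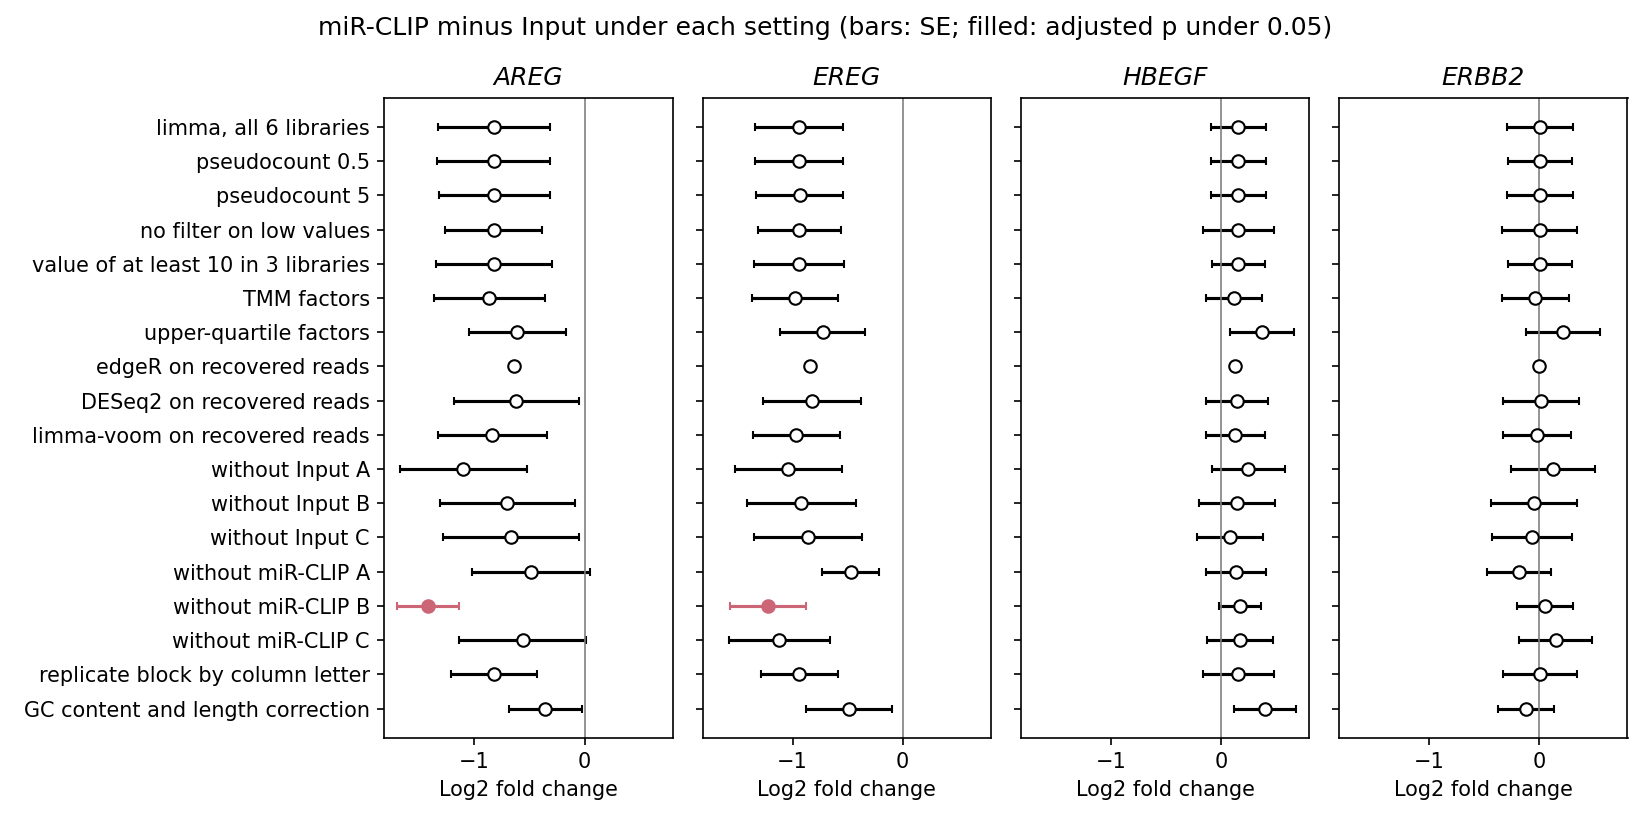
Log2 fold change of miR-CLIP minus Input (x axis) for AREG, EREG, HBEGF and ERBB2 under each way of processing (rows), with bars for the SE where the tool gives one. Filled red symbols mark an adjusted p under 0.05, reached by AREG (-1.42) and EREG (-1.224) without miR-CLIP B only. HBEGF lies right of 0 in every row and ERBB2 on both sides of it.

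The genes whose profile over the 6 libraries was most like that of each member were found by Pearson r on the log2 scale, among tested genes with a mean log2 value of at least 5. With 6 libraries and 5101 genes, high values are common, and they are given as a description. For AREG these were HMGN3 (r = 0.997), GGCT (0.993) and the growth factor FGF1 (0.992), all low in miR-CLIP A and C and near Input levels in B. For EREG they were the cyclin CCNI (0.986), BBIP1 (0.982) and FKBP1A (0.982), all lowest in miR-CLIP A. For HBEGF they were the histone deacetylase HDAC5 (0.993), DCAKD (0.978) and the phosphatase CDC25C (0.971). For ERBB2 they were ASPM (0.991), BRCA2 (0.970) and DBF4B (0.966), and for ERBB3, whose own profile rests on 14 reads, GUF1 (0.981), ATAD1 (0.978) and FMN2 (0.971).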

How the data were processed

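The members and gene lists were chosen with earlier results of these data known. RNA-seq was made from 3 Input and 3 miR-CLIP libraries of IMR90 cells, and column letters A to C could not be tied to single samples. The deposited signal values are read counts that the authors scaled with a single size factor for each library: 100% of values in each column were whole multiples of its smallest value within 1e-06. The deposited table also holds the authors' fold (a linear ratio) and their p-value, raw and adjusted, per the file headers. GRCh38, STAR 2.5.1b, Trimmomatic 0.35 and DESeq2 1.22.2 are named in the submitters' processing notes. The counter and strand setting were not given in the sources used here.

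Genes reaching 1 in 3 or more libraries were tested two-sided with limma 3.58.1 (limma-trend, R 4.3.3) on log2(value + 1), all 6 libraries, group as the only term, after a test on simulated data. The pseudocount understates the change of low genes. Alternatives used edgeR 4.0.16, DESeq2 1.42.0 and voom on recovered reads, other scalings, filters and pseudocounts, single libraries left out, a block and a spline correction for GC content and length. The labels do not say whether a group's libraries are separate cultures, and its spread, on which each p-value rests, may be technical. Named list genes are the 4 with the smallest p in each list. GENCODE 29 held 18143 of 18234 identifiers.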

Additional observations from a re-analysis of the deposited data

How the results depend on the processing

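Of 421 values of 25 named genes over 17 alternatives, 391 kept their direction and their side of the threshold, 14 passed it in the same direction, all without miR-CLIP B, and 16 turned sign without passing. Over all genes, limma called 0, DESeq2 called 2 (ATP5L and HOMER3, both higher), and leaving out 1 library gave 0 to 2442 calls, with the highest count without miR-CLIP B. Among the members the range was 0 to 2, and the 2 were AREG and EREG. The sign turned for ERBB2 with TMM factors (-0.034), edgeR (-1.8e-05), voom (-0.021) and the GC content and length correction (-0.12), and ran from -0.18 to 0.15 with 1 library left out. EGFR had -0.26 after that correction and -0.087 to 0.30 with 1 library left out. EGF had 0.048 with edgeR, 0.056 with DESeq2 and -1.51 to 0.51 with 1 library left out, and EPGN -0.83 to 1.36. The causes were not tested. Upper-quartile factors moved the median of all genes by 0.19 on the log2 scale, and with them AREG had -0.61, EREG -0.73, HBEGF 0.37 and ERBB2 0.22. With all 6 libraries or any other one left out, the adjusted p of AREG and EREG stayed at 0.558 or above. Libraries of the same letter had correlated deviations of 0.140, 0.107 and 0.0857 in A, B and C, each the highest for its letter, but letters are not shown to pair libraries. With the letter as a replicate block 0 genes were called, and AREG kept -0.82 and EREG -0.94 (limma adjusted p 0.558 for both). Depth limits BTC and ERBB3, with 9 and 14 reads in all.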
